A study of Homo sapiens with 16 samples.

Results

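The 5 transcription factor genes described here are STAT2 and IRF9, which are subunits of the complex ISGF3, IRF7, STAT3 and IRF2, and they carry or shape the response to an interferon. They were taken by symbol from the 20802 genes counted, each symbol matched 1 row of every count file, and 5 of 5 passed the filter on low counts. RNA was counted in 16 libraries of HEK293, an established human embryonic kidney line grown in Free-style medium. Receptors were labelled optimized in 8 libraries and wild-type in the other 8, in a series on the geometry between receptor-bound Janus kinases. Cells of each genotype received 100 nM of IFNw (interferon omega, a type I interferon), H11 (labelled as a high-affinity IFNL3) or IFNL3 (interferon lambda 3, a type III interferon), or were left untreated. Treatment lasted 15 min per the protocol, a time of 24 hr is also labelled, and how the 2 fit together is not stated. The labels do not say what was changed in the optimized receptors, how the receptors were expressed or whether a genotype is a single clone. There was no mock-treated group among the libraries used here, so a difference from untreated cells cannot be told apart from one of handling. Each of the 8 groups has 2 libraries, called biological replicates with no word on separate cultures, so p-values measure the spread between these libraries, which may be technical.

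Type I and type III interferons bind different receptors, whose associated Janus kinases then phosphorylate STAT proteins. In ISGF3, IRF9 provides much of the contact with a promoter element called the ISRE, and STAT2 provides a transactivation domain. The genes that ISGF3 switches on include those for its own subunits and for IRF7, a factor that drives interferon alpha genes once it has itself been phosphorylated below nucleic acid sensors. STAT3 mainly serves cytokines of the interleukin-6 family and can dampen interferon responses, and IRF2 competes at the same class of DNA element as IRF1, often as a repressor.

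The sequences just upstream of 3 of these genes, STAT2, IRF9 and STAT3, are shown because these matched a RefSeq promoter. IRF7 and IRF2 did not match one, so their sequences are missing for that reason and not for their response. Of the genes shown, STAT2 and IRF9 were higher with every ligand and STAT3 passed the test with none, as given below. Each line holds the 250 bases before the RefSeq start of the gene (GRCh38.p14), on the gene's own strand, and capitals mark the only match to TTCNNNGAA, a spacing that STAT dimers bind. The entries lie at chr12:56360108-56360357 on the minus strand for STAT2, chr14:24161015-24161264 on the plus strand for IRF9 and chr17:42388443-42388692 on the minus strand for STAT3.
STAT2: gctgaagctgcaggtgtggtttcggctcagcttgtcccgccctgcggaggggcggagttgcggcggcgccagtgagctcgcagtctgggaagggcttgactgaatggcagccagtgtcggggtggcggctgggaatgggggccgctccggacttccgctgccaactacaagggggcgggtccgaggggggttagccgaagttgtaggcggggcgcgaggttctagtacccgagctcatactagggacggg
IRF9: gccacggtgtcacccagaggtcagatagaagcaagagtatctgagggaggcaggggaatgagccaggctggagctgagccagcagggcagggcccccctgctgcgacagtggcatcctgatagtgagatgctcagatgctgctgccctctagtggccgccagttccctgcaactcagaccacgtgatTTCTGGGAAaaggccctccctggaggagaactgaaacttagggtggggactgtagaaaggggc
STAT3: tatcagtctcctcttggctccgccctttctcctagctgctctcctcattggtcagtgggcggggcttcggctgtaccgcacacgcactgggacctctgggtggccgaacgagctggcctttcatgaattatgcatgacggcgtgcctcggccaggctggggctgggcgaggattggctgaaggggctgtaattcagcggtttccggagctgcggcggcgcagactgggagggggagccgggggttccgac
The match in the IRF9 sequence, TTCTGGGAA, runs from 63 to 55 bases upstream of the start, and neither the STAT2 nor the STAT3 sequence held TTCNNNGAA. Among 35116 RefSeq promoter windows of the same length, 6.57% held TTCNNNGAA on either strand. A pair of GAAA runs with 2 free bases (NN) between them, the core of an ISRE, was found on either strand in none of the 3 sequences and in 3.02% of all windows. The shorter GAAAC, which can lie inside an ISRE, was present once in each of the 3, on the plus strand of IRF9 from 31 to 27 bases upstream and on the reverse strand in STAT2 and STAT3, and 38% of all windows held it. These matches describe letters in a window and are not mapped binding sites.

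Library totals ran from 5331203 to 9822088 reads. Levels are CPM, read counts scaled to each library's TMM-adjusted total, and the files count 1 amplified target per gene, so levels are not compared between genes. The TMM factors were 1.26 to 1.28 in wild-type cells with H11 or IFNL3 and 0.795 to 0.836 in the IFNw and optimized H11 libraries. They were 1.00 to 1.07 in the other libraries. Differences in CPM between these library sets include that scaling. All 8 HEK293 markers had reads, 5 of them were over 5 CPM, and the sum of the 8 was 383 to 654 CPM. That sum was 383 to 476 CPM in the IFNw and optimized H11 libraries and 515 to 654 CPM in the others. Some listed markers of other cells had none, among them LYZ (blood cells), COL1A2 and LUM (fibroblasts), and ALB and TTR (hepatocytes). Of the whole lists, 4 of 6 fibroblast markers had a read and 2 were over 5 CPM, with a sum of 15.4 to 29.6 CPM, 5 of 7 blood cell markers had a read and 0 were over 5 CPM (0.977 to 6.26 CPM), and 1 of 3 hepatocyte markers had a read (0 to 0.537 CPM). The part of these markers in the results was not tested. The libraries differed in how read counts related to transcript length, measured as Spearman's rho across genes between a library's deviation from the gene's mean log2 CPM and the length of its longest annotated transcript. That rho lay between -0.426 and -0.395 in all IFNw libraries and the optimized H11 libraries, between 0.363 and 0.398 in wild-type cells with H11 or IFNL3, and between 0.035 and 0.154 in the other libraries. Differences across these sets were therefore also computed with a trend on transcript length removed from each library, called the length offset. Both values are given where a call of the 5 factors, or a call named for another gene, changed. The longest transcripts are 3278 bases for STAT2, 1838 for IRF9, 2051 for IRF7, 5047 for STAT3 and 2303 for IRF2. The untreated optimized libraries were the least alike of any pair (Pearson's r of log2 CPM across genes 0.958, where other pairs had 0.976 to 0.982).

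STAT2 was higher with every ligand in both genotypes. In wild-type cells H11 and IFNL3 gave a larger STAT2 response than IFNw, and in optimized cells the level with the same ligands was lower than in wild-type cells. With IFNw, STAT2 stood at 84.2 and 80.9 CPM in optimized cells, against 84.4 and 89.6 CPM in wild-type cells. With H11 it stood at 83.0 and 83.9 CPM in optimized cells, against 135 and 129 CPM in wild-type cells. With IFNL3 it stood at 94.0 and 103 CPM in optimized cells, against 129 and 133 CPM in wild-type cells. The 4 wild-type libraries with H11 or IFNL3 were thus the highest of the 16, and none of the other ligand-treated libraries reached them. Untreated STAT2 was 33.7 and 37.3 CPM in optimized cells, against 35.5 and 28.1 CPM in wild-type cells, which overlap. In these bulk libraries fewer responding cells and less RNA per cell cannot be told apart.

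In optimized cells the STAT2 response over untreated cells was 2.33-fold with IFNw (log2 1.22 ± 0.13 SE, adjusted p = 2.5e-06), 2.36-fold with H11 (1.24 ± 0.13, adjusted p = 2.4e-06) and 2.78-fold with IFNL3 (1.47 ± 0.13, adjusted p = 5.4e-07). In wild-type cells it was 2.74-fold with IFNw (1.45 ± 0.13, adjusted p = 3.3e-07), 4.15-fold with H11 (2.05 ± 0.13, adjusted p = 4.6e-09) and 4.11-fold with IFNL3 (2.04 ± 0.13, adjusted p = 5.1e-09). In order of level, wild-type H11 and wild-type IFNL3 libraries overlap at the top, followed by optimized IFNL3, wild-type IFNw, then optimized H11 and optimized IFNw, which overlap, and the untreated groups, which overlap. Optimized cells had 1.58-fold less STAT2 than wild-type cells with H11 (log2 -0.66, 95% interval -0.93 to -0.39, adjusted p = 0.00032) and 1.33-fold less with IFNL3 (log2 -0.41, 95% interval -0.67 to -0.15, adjusted p = 0.018). The IFNL3 value lost its call without replicate 1 of the optimized IFNL3 libraries (log2 -0.35, adjusted p = 0.13) or without replicate 1 (-0.43, adjusted p = 0.063) or replicate 2 (-0.39, adjusted p = 0.094) of the wild-type ones. With IFNw the difference was -0.08 (95% interval -0.34 to 0.19, adjusted p = 1) and in untreated cells 0.16 (95% interval -0.13 to 0.44, adjusted p = 0.80). With the length offset the optimized minus wild-type difference was -0.72 with H11 and -0.44 with IFNL3, and both kept their calls.

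**Figure D1:**
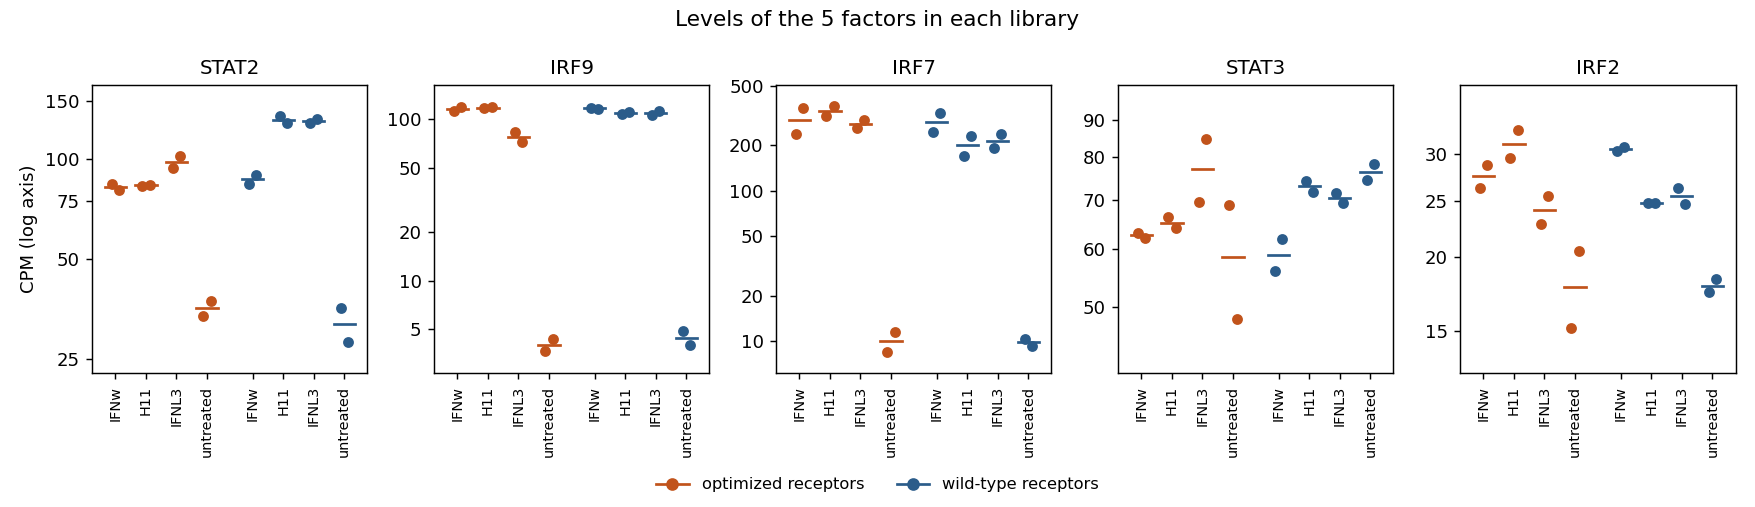
Level of each factor in every library, in CPM on a log axis with its own range per panel, with optimized cells on the left and wild-type cells on the right of each panel. Points are the 2 libraries of a group and bars their mean. For STAT2 the 4 wild-type libraries with H11 or IFNL3 lie between 129 and 135 CPM, above every other library, and for IRF9 the optimized IFNL3 libraries are the lowest of the ligand-treated ones at 83.6 and 72.6 CPM.

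IRF9, the DNA-binding subunit, responded far more strongly than STAT2 and lay between 106 and 119.5 CPM in 10 of the 12 ligand-treated libraries. The exceptions were the optimized libraries with IFNL3, where it was lower. With IFNw, IRF9 stood at 113 and 119.5 CPM in optimized cells, against 118 and 116 CPM in wild-type cells. With H11 it stood at 118 and 119 CPM in optimized cells, against 108 and 112 CPM in wild-type cells. With IFNL3 it stood at 83.6 and 72.6 CPM in optimized cells, against 106 and 113 CPM in wild-type cells. The 2 optimized IFNL3 libraries were below all 10 other ligand-treated libraries. Untreated IRF9 was 3.67 and 4.38 CPM in optimized cells, against 4.88 and 3.99 CPM in wild-type cells, which overlap.

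In optimized cells IRF9 was 29.3-fold higher than in untreated cells with IFNw (log2 4.87 ± 0.17 SE, adjusted p = 4.3e-13), 29.8-fold with H11 (4.90 ± 0.17, adjusted p = 4e-13) and 19.7-fold with IFNL3 (4.30 ± 0.16, adjusted p = 2.6e-12). In wild-type cells it was 26.4-fold higher with IFNw (4.72 ± 0.16, adjusted p = 3.8e-13), 24.8-fold with H11 (4.63 ± 0.16, adjusted p = 1.2e-12) and 24.7-fold with IFNL3 (4.63 ± 0.16, adjusted p = 1.1e-12). Optimized H11, wild-type IFNw and optimized IFNw libraries overlap at the top of the order, wild-type H11 and IFNL3 libraries overlap below them, optimized IFNL3 stands apart, and the untreated groups overlap. With IFNL3, optimized cells had 1.41-fold less IRF9 than wild-type cells (log2 -0.49, 95% interval -0.75 to -0.23, adjusted p = 0.0052). Without replicate 2 of the optimized IFNL3 libraries that value was -0.39 (adjusted p = 0.080), without replicate 2 of the wild-type ones it was -0.44 (adjusted p = 0.051), and with the length offset it was -0.80 (adjusted p = 0.00017). With H11 the optimized minus wild-type difference was 0.10 (95% interval -0.15 to 0.36, adjusted p = 0.49) as counted and -0.42 (adjusted p = 0.012) with the length offset, so its direction depends on that step. The exons of IRF9 overlap those of another protein-coding gene on the same strand in GENCODE 29 (GRCh38), and reads of the 2 genes could not be told apart here.

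Because STAT2 and IRF9 moved unequally, the number of IRF9 reads per STAT2 read was taken within each library, which needs no scaling between libraries. With IFNw it was 1.34 and 1.48 in optimized cells, against 1.4 and 1.3 in wild-type cells. With H11 it was 1.42 and 1.42 in optimized cells, against 0.803 and 0.868 in wild-type cells. With IFNL3 it was 0.890 and 0.708 in optimized cells, against 0.825 and 0.854 in wild-type cells. In ligand-treated libraries the ratio thus fell into a range of 1.3 to 1.48 with IFNw of either genotype and H11 in optimized cells, and a range of 0.708 to 0.890 with H11 or IFNL3 in wild-type cells and IFNL3 in optimized cells. Untreated cells had the lowest ratios, 0.109 and 0.117 in optimized cells, against 0.138 and 0.142 in wild-type cells, which do not overlap. The libraries with the higher ratios were also those with a rho on transcript length below 0, and IRF9 has the shorter transcript. With the length offset H11 minus IFNw in wild-type cells was 0.66 for STAT2 and 0.45 for IRF9 on the log2 scale, where the values as counted were 0.60 and -0.09.

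**Figure D2:**
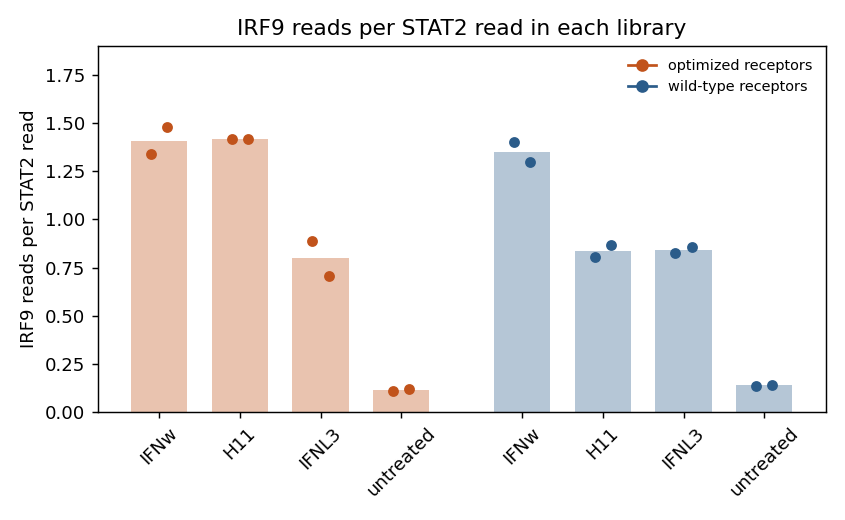
Number of IRF9 reads per STAT2 read in each library, from 0, with optimized cells on the left. Points are libraries and bars are means of the 2 libraries of a group. The H11 libraries stand at 1.42 in optimized cells, against 0.803 and 0.868 in wild-type cells, where they lie among the IFNL3 libraries.

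IRF7 was higher with every ligand in both genotypes, by about the same multiple as IRF9. With IFNw it stood at 239 and 357 CPM in optimized cells, against 245 and 329 CPM in wild-type cells. With H11 it stood at 315 and 365 CPM in optimized cells, against 171 and 232 CPM in wild-type cells. With IFNL3 it stood at 264 and 294 CPM in optimized cells, against 193 and 237 CPM in wild-type cells. The genotypes overlap with IFNw and do not overlap with H11 or IFNL3. Untreated IRF7 was 8.45 and 11.4 CPM in optimized cells, against 10.2 and 9.28 CPM in wild-type cells, which overlap.

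In optimized cells IRF7 was 30.6-fold higher than in untreated cells with IFNw (log2 4.94 ± 0.25 SE, adjusted p = 1.3e-10), 34.9-fold with H11 (5.13 ± 0.25, adjusted p = 7.9e-11) and 28.6-fold with IFNL3 (4.84 ± 0.25, adjusted p = 2e-10). In wild-type cells it was 29.4-fold higher with IFNw (4.88 ± 0.24, adjusted p = 1.2e-10), 20.7-fold with H11 (4.37 ± 0.24, adjusted p = 5.2e-10) and 22.1-fold with IFNL3 (4.46 ± 0.24, adjusted p = 4.2e-10). The 4 highest groups, optimized H11, optimized IFNw, wild-type IFNw and optimized IFNL3, each overlap the next in the order, and so do wild-type IFNL3 and H11 below them. With H11, optimized cells had 1.68-fold more IRF7 than wild-type cells (log2 0.75, 95% interval 0.34 to 1.16, adjusted p = 0.0040). That call was lost with the length offset (0.31, adjusted p = 0.22) and without replicate 1 of the wild-type H11 libraries (0.55, adjusted p = 0.072). With IFNL3 the difference was 0.37 (95% interval -0.04 to 0.79, adjusted p = 0.15), which was called with no low-count filter (0.38, adjusted p = 0.039) and with only the groups compared (0.38, adjusted p = 0.020), and with IFNw it was 0.05 (95% interval -0.36 to 0.47, adjusted p = 1). Markers of plasmacytoid dendritic cells, which are rich in IRF7, summed to 31.7 to 33.4 CPM in wild-type H11 and IFNL3 libraries, where IRF7 was lowest among treated cells, and to 15.0 to 21.7 CPM in the other libraries, with 1 of the 4 markers over 5 CPM; their part in the result was not tested.

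IRF2 had a smaller response than STAT2, IRF9 and IRF7. With IFNw it stood at 26.3 and 28.8 CPM in optimized cells, against 30.4 and 30.9 CPM in wild-type cells. With H11 it stood at 29.6 and 33.0 CPM in optimized cells, against 24.8 and 24.7 CPM in wild-type cells. With IFNL3 it stood at 22.8 and 25.4 CPM in optimized cells, against 26.3 and 24.7 CPM in wild-type cells. All 12 ligand-treated libraries were above all 4 untreated libraries, which held 15.2 and 20.5 CPM in optimized cells, against 17.5 and 18.4 CPM in wild-type cells. In optimized cells the response was 1.56-fold with IFNw (log2 0.64 ± 0.17 SE, adjusted p = 0.0062), 1.78-fold with H11 (0.83 ± 0.17, adjusted p = 0.00093) and 1.37-fold with IFNL3 (0.45 ± 0.17, adjusted p = 0.078), the last not past the threshold of 0.05. In wild-type cells it was 1.71-fold with IFNw (0.77 ± 0.16, adjusted p = 0.0015), 1.38-fold with H11 (0.47 ± 0.16, adjusted p = 0.028) and 1.42-fold with IFNL3 (0.51 ± 0.16, adjusted p = 0.018). The wild-type H11 and IFNL3 calls were lost when any 1 of the 4 compared libraries was left out (log2 0.43 to 0.50 and 0.46 to 0.55). The wild-type H11 call was also lost with no low-count filter (0.47, adjusted p = 0.059). The optimized IFNw call was lost with the length offset (0.41, adjusted p = 0.090) and with only the groups compared (0.64, adjusted p = 0.1). It was lost as well without replicate 1 of the untreated optimized libraries (0.43).

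STAT3 passed the test in none of the 6 comparisons with untreated cells. With IFNw it stood at 63.2 and 62.2 CPM in optimized cells, against 56.1 and 61.9 CPM in wild-type cells. With H11 it stood at 66.3 and 64.1 CPM in optimized cells, against 74.3 and 71.8 CPM in wild-type cells. With IFNL3 it stood at 69.6 and 84.8 CPM in optimized cells, against 71.5 and 69.4 CPM in wild-type cells. Untreated cells held the lowest of the 16 libraries, with 68.8 and 48.2 CPM in optimized cells, against 74.5 and 78.4 CPM in wild-type cells, and the ligand-treated libraries lay between 56.1 and 84.8 CPM. Its fold changes over untreated cells ran from log2 -0.37 in wild-type cells with IFNw (95% interval -0.69 to -0.05, adjusted p = 0.072) to 0.39 in optimized cells with IFNL3 (95% interval 0.07 to 0.71, adjusted p = 0.10). The comparisons in wild-type cells did not use the untreated optimized libraries. For optimized cells with H11 or IFNL3, and between untreated genotypes, the result depended on those libraries. Their replicate 2, the lowest in STAT3 at 48.2 CPM, also had the fewest reads of the 16 libraries (5331203). Without replicate 1, that library alone stood for untreated optimized cells. STAT3 was then called higher in optimized cells with H11 (0.44) and with IFNL3 (0.68). It was also called lower in untreated optimized than in untreated wild-type cells (-0.67). Over the fits with 1 library left out, the H11 value ran from -0.08 to 0.44 and the IFNL3 value from 0.16 to 0.68. The difference between untreated genotypes ran from -0.67 to -0.15.

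**Figure D3:**
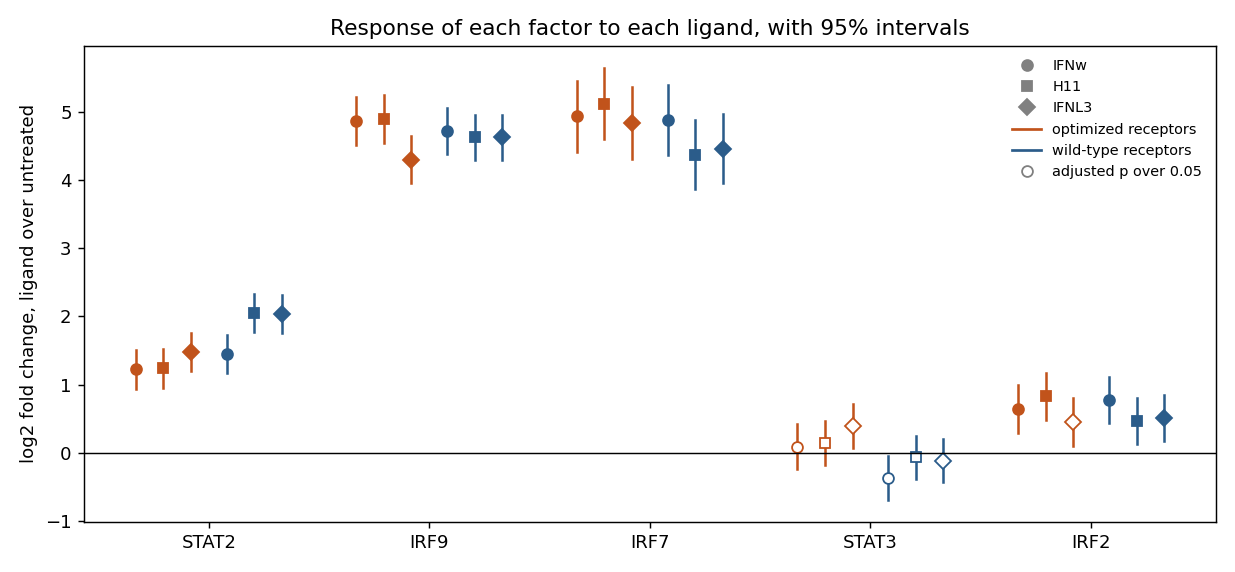
Response of each factor to each ligand as a log2 fold change over untreated cells of the same genotype, with 95% intervals from edgeR. Filled symbols passed an adjusted p of 0.05 and open ones did not. IRF9 and IRF7 lie between 4.30 and 5.13, STAT2 between 1.22 and 2.05, IRF2 between 0.45 and 0.83, and STAT3 on either side of 0.

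Counted over the 5 factors, 4 rose in optimized cells with IFNw. There 33.4% of the 12704 genes tested were called in either direction and 17.5% rose. In the same cells 4 rose with H11, where 32.4% of genes were called and 17.2% rose. With IFNL3 3 rose, where 13.3% of genes were called (7.26% higher and 6.05% lower). In wild-type cells 4 rose with IFNw, H11 and IFNL3 alike. There 31.4%, 38.8% and 39.7% of genes were called, and 16.6%, 18.2% and 18.7% rose. Between genotypes, 0 of the 5 differed in untreated cells and 0 with IFNw, where 0% of genes were called (705 and 439 genes had an unadjusted p below 0.05, and DESeq2 called 0 in both). With H11, 2 of the 5 differed, STAT2 and IRF7, and 51.7% of all genes were called, so that share of the factors is not above the background. With IFNL3, 2 of the 5 differed, STAT2 and IRF9, with 33.2% of genes called.

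The difference between the genotypes' responses was tested directly as an interaction. For H11 the STAT2 response was smaller in optimized cells by 0.81 ± 0.19 on the log2 scale (SE, difference -0.81, 95% interval -1.21 to -0.42, adjusted p = 0.0023), and STAT2 was 1 of 5 factors called where 36.9% of genes were. For IFNL3 it was smaller by a log2 difference of -0.57 ± 0.18 (95% interval -0.96 to -0.18, adjusted p = 0.041), again 1 of 5 factors, where 18.4% of genes were called (7.31% with a smaller response in optimized cells). The IFNL3 value was called in neither of the fits with no low-count filter (-0.56, adjusted p = 0.095) or of the compared groups alone (-0.57, adjusted p = 0.12). It was also lost without either optimized or either wild-type IFNL3 library, or without replicate 2 of the untreated libraries of either genotype (-0.63 to -0.41, adjusted p = 0.063 to 0.19). With the length offset the differences were -0.92 for H11 and -0.64 for IFNL3, both called. The IRF7 response to H11 was larger in optimized cells by 0.75 (95% interval 0.06 to 1.45) with an adjusted p of 0.084. With no low-count filter that adjusted p was 0.013, and with the length offset the IRF7 value was 0.27 (adjusted p = 0.58). IRF9 differed by 0.27 with H11 (95% interval -0.23 to 0.76, adjusted p = 0.40) as counted. With the length offset the IRF9 value was -0.29 (adjusted p = 0.41), so its direction depends on that step. With IFNL3 IRF9 differed by -0.33 (95% interval -0.83 to 0.17, adjusted p = 0.38). For IFNw 0 of 5 factors and 0% of genes were called, with 633 genes at an unadjusted p below 0.05 and 0 called by DESeq2.

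**Figure D4:**
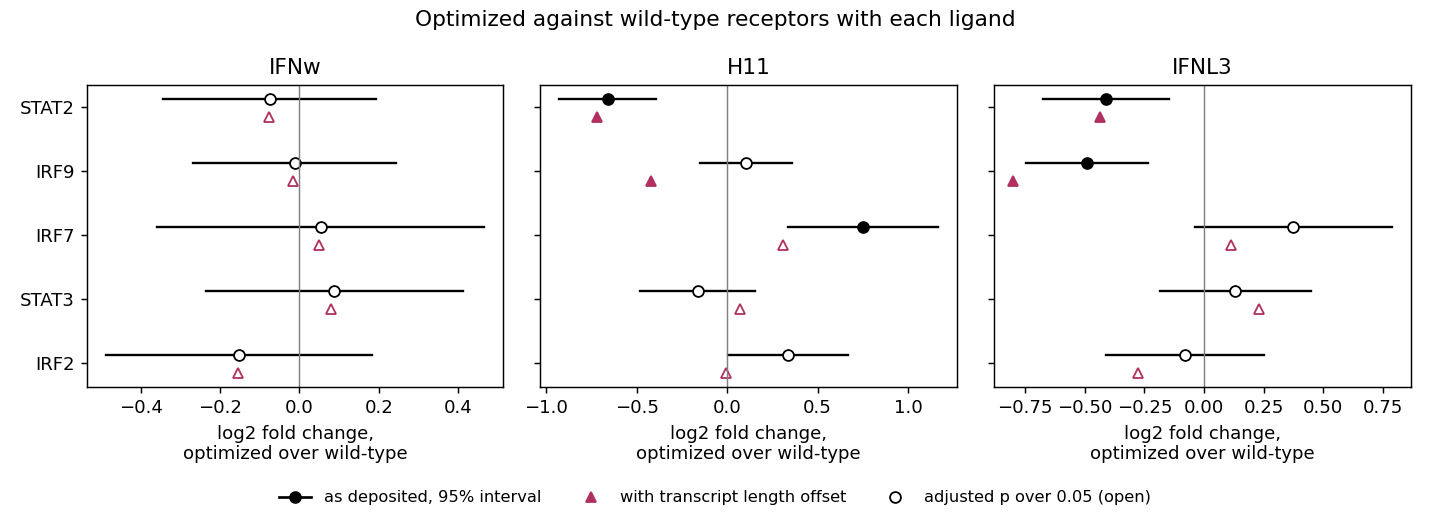
Optimized over wild-type log2 fold change of each factor with IFNw, H11 and IFNL3. Circles with 95% intervals are the values as deposited and triangles the values with the length offset, filled where the adjusted p was 0.05 or less. STAT2 is lower in optimized cells with H11 and IFNL3 under both, while IRF9 with H11 lies at 0.10 as deposited and at -0.42 with the offset.

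H11 and IFNw, which act through different receptors, were also compared with each other and with IFNL3. In optimized cells H11 and IFNw differed in 0 of the 5 factors, where 0% of genes were called (279 at an unadjusted p below 0.05, 0 by DESeq2). The intervals of H11 minus IFNw there were -0.25 to 0.28 for STAT2, -0.23 to 0.28 for IRF9, -0.22 to 0.60 for IRF7, -0.27 to 0.38 for STAT3 and -0.15 to 0.52 for IRF2, so a small difference may have gone unseen. In wild-type cells STAT2 was 1.52-fold higher with H11 than with IFNw (log2 0.60, 95% interval 0.33 to 0.87, adjusted p = 0.00072), and IRF7 was 1.42-fold lower (-0.51, 95% interval -0.92 to -0.09, adjusted p = 0.038), where 52.2% of genes were called. The STAT2 value was 0.66 with the length offset and kept its call. The IRF7 call was lost with the length offset (-0.05, adjusted p = 0.85) and without replicate 1 of the wild-type H11 libraries (-0.30, adjusted p = 0.31) or replicate 2 of the wild-type IFNw libraries (-0.29, adjusted p = 0.34). IRF9 stood at -0.09 in this comparison (adjusted p = 0.55) and at 0.45 with the length offset (adjusted p = 0.0076).

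Against IFNL3, H11 gave an IRF9 level 1.51-fold higher in optimized cells (log2 0.60, 95% interval 0.34 to 0.86, adjusted p = 0.0032), the only factor of 5 called where 17.6% of genes were. IFNw likewise gave 1.49-fold more IRF9 than IFNL3 in optimized cells (0.57, 95% interval 0.31 to 0.83, adjusted p = 0.0038), again 1 of 5, where 19.1% of genes were called. Both IRF9 calls were lost with the length offset (0.38, adjusted p = 0.071, and 0.33, adjusted p = 0.10) and without replicate 2 of the optimized IFNL3 libraries (0.50, adjusted p = 0.058, and 0.47, adjusted p = 0.065). In wild-type cells H11 and IFNL3 differed in 0 of 5 factors and 0% of genes (158 at an unadjusted p below 0.05, 0 by DESeq2). There the interval of H11 minus IFNL3 was -0.25 to 0.27 for STAT2, -0.25 to 0.26 for IRF9 and -0.50 to 0.32 for IRF7. Wild-type cells had 1.5-fold less STAT2 with IFNw than with IFNL3 (-0.59, 95% interval -0.85 to -0.32, adjusted p = 0.00086), 1 of 5 factors where 53.1% of genes were called (25.9% higher and 27.2% lower), and IRF9 stood at 0.09 (adjusted p = 0.54) as counted and at -0.45 (adjusted p = 0.0072) with the length offset.

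Over all genes tested, 17.5%, 17.2% and 7.26% rose and 15.9%, 15.2% and 6.05% fell with IFNw, H11 and IFNL3 in optimized cells, and 16.6%, 18.2% and 18.7% rose and 14.8%, 20.6% and 21.1% fell in wild-type cells. The gene lists that follow are to be read against these shares. Of 4 further STAT genes 3 passed the low-count filter, and STAT4 had 0 reads in the 16 libraries. STAT5B, a factor of growth hormone and interleukin-2 signalling, was 35.1 ± 3.06 CPM with IFNw and 32.9 ± 1.59 CPM with IFNL3 in optimized cells, against 54.5 ± 12 CPM in untreated optimized cells (SD, n = 2 each), and both decreases were called (log2 -0.63, adjusted p = 0.0080, and -0.72, adjusted p = 0.0091). STAT5B was also lower in wild-type cells with H11 (33.7 ± 1.27 CPM, log2 -0.46, adjusted p = 0.035) and IFNL3 (33.9 ± 4.90 CPM, -0.45, adjusted p = 0.037), against 46.3 ± 0.612 CPM in untreated wild-type cells. In optimized cells with H11 (-0.42, adjusted p = 0.066) and wild-type cells with IFNw (-0.35, adjusted p = 0.13) it did not pass the test. Of the 3 STAT genes tested, 0 rose in any of these comparisons, 1, 0 and 1 fell with IFNw, H11 and IFNL3 in optimized cells, and 0, 2 and 2 fell in wild-type cells. STAT6, the interleukin-4 factor, was higher with IFNL3 in optimized than in wild-type cells (23.8 ± 3.14 against 15.9 ± 0.468 CPM, log2 0.58, adjusted p = 0.025). Of 6 further IRF genes 4 passed the filter, and IRF4, which did not, had at most 4 reads in a group. Of these 4, 3, 3 and 2 rose and 1, 1 and 0 fell with IFNw, H11 and IFNL3 in optimized cells, and 1 rose with each ligand and 0, 1 and 1 fell in wild-type cells. Under the length offset 3, 2 and 1 rose in optimized cells, and 0 fell in wild-type cells with IFNL3.

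IRF1, an activator that meets IRF2 at shared elements, rose in all 6 comparisons with untreated cells. In optimized cells its level was 9.65 ± 1.31 CPM after IFNw, 9.54 ± 1.02 CPM after H11 and 7.88 ± 0.0948 CPM after IFNL3, against 4.46 ± 0.608 CPM untreated (SD, n = 2 each). In wild-type cells its level was 8.50 ± 0.608 CPM after IFNw, 19.5 ± 1.77 CPM after H11 and 21.6 ± 0.876 CPM after IFNL3, against 5.57 ± 0.407 CPM untreated. As for STAT2, the highest IRF1 levels were thus in wild-type cells with H11 or IFNL3. Optimized cells had less IRF1 than wild-type cells with H11 (log2 -1.02, adjusted p = 0.00023) and IFNL3 (-1.45, adjusted p = 1.9e-05), and the values with the length offset were -0.77 and -1.34. The genotypes' IRF1 responses differed for IFNL3 (-1.15 ± 0.30, adjusted p = 0.012) and were not past the threshold for H11 (-0.73 ± 0.30, adjusted p = 0.066).

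IRF3, the relative of IRF7 that is present before an interferon response, rose in optimized cells with IFNw (75.3 ± 10.8 against 41.1 ± 0.916 CPM untreated, log2 0.87, adjusted p = 0.0015), H11 (81.8 ± 4.42 CPM, 0.99, adjusted p = 0.00052) and IFNL3 (62.9 ± 5.44 CPM, 0.61, adjusted p = 0.035), the last not called with the length offset (0.56, adjusted p = 0.052). In wild-type cells IRF3 was 62.2 ± 7.40 CPM after IFNw, 43.4 ± 4.11 CPM after H11 and 48.0 ± 8.73 CPM after IFNL3, against 50.9 ± 13.8 CPM untreated, and none of these passed the test. The IRF3 response to H11 was larger in optimized cells (1.22 ± 0.26, adjusted p = 0.0013). IRF5, a factor of Toll-like receptor signalling, fell in optimized cells with IFNw (-0.52, adjusted p = 0.040) and H11 (-0.53, adjusted p = 0.038) and in wild-type cells with H11 (-0.69, adjusted p = 0.0072) and IFNL3 (-0.54, adjusted p = 0.028), where the call was lost with the length offset (-0.49, adjusted p = 0.055).

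Among 11 measured inhibitors of STAT signalling, 1 rose and 2 fell in optimized cells with IFNw and again with H11, and 1 rose and 0 fell with IFNL3. In wild-type cells 1 rose and 2 fell with IFNw, and 4 rose and 0 fell with H11 and with IFNL3. With the length offset the wild-type counts that rose with H11 and IFNL3 were 2 and 2, and 1 fell in wild-type cells with IFNw. With the same offset 2 rose and 1 fell in optimized cells with IFNw, and 1 rose and 1 fell with H11. The list's median was between -0.22 and 0.45 in the 6 comparisons, where that of all genes was between -0.05 and -0.01. USP18, which STAT2 brings to a type I receptor chain and which blocks signalling there, rose in every one of these comparisons. It reached 158 ± 17.1 CPM after IFNw, 153 ± 18.7 CPM after H11 and 143 ± 7.41 CPM after IFNL3 in optimized cells, against 19.6 ± 0.972 CPM untreated, and at 149 ± 10.7, 94.9 ± 5.35 and 93.7 ± 7.58 CPM in wild-type cells, against 20.1 ± 2.26 CPM untreated. Optimized cells had more USP18 than wild-type cells with H11 (log2 0.69, adjusted p = 0.00037) and with IFNL3 (0.61, adjusted p = 0.0021), and both calls were lost with the length offset (0.28, adjusted p = 0.11, and 0.37, adjusted p = 0.055). PTPN11, a phosphatase, was lower in optimized cells with IFNw (62.8 against 105 CPM untreated, log2 -0.75, adjusted p = 0.0018) and H11 (67.0 CPM, -0.66, adjusted p = 0.0048), and with IFNL3 it stood at -0.04 (adjusted p = 0.91). In wild-type cells PTPN11 was lower with IFNw as well (66.4 against 129 CPM untreated, -0.96, adjusted p = 0.00022). It was higher in wild-type cells with H11 (0.46, adjusted p = 0.028) and IFNL3 (0.41, adjusted p = 0.044), and neither increase was called with the length offset (0.32, adjusted p = 0.099, and 0.28, adjusted p = 0.15).

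Of 11 coactivators and import factors, 1 rose in optimized cells with each ligand, and 4, 2 and 0 fell with IFNw, H11 and IFNL3. In wild-type cells 2, 4 and 5 rose with these ligands, and 2, 1 and 1 fell. Under the length offset 2 fell in optimized cells with IFNw, 1 fell in wild-type cells with IFNw and 4 rose in wild-type cells with IFNL3. The list's median was between -0.16 and 0.53. NMI, a STAT-binding protein that is itself interferon-stimulated, rose in all 6 comparisons, to 23.6 ± 0.628 CPM after IFNw, 21.4 ± 2.70 CPM after H11 and 13 ± 0.235 CPM after IFNL3 in optimized cells, against 1.4 ± 1.48 CPM untreated. EP300, a histone acetyltransferase that STAT2 recruits, was 1.00 higher on the log2 scale with H11 in wild-type cells than in untreated cells (adjusted p = 0.0015), and it was lower in optimized than in wild-type cells with H11 (-1.60, adjusted p = 1.5e-05).

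Of 8 measured genes that lead to IRF7 activation, MYD88, an adaptor of Toll-like receptors, rose in all 6 comparisons. It reached 42.8 ± 3.31 CPM after IFNw, 42.5 ± 3.28 CPM after H11 and 39.5 ± 0.0933 CPM after IFNL3 in optimized cells, against 23.9 ± 7.5 CPM untreated, and at 44.6 ± 0.963, 59.6 ± 7.97 and 56.7 ± 3.81 CPM in wild-type cells, against 20.2 ± 1.28 CPM untreated. TRAF3, a ubiquitin ligase below several sensors, fell in the same 6 comparisons (log2 -0.89 to -0.49), and the adjusted p in wild-type cells with H11 was 0.050. The TRAF3 call was lost with the length offset in wild-type cells with IFNw (-0.33, adjusted p = 0.28) and, just over the threshold, in optimized cells with H11 (-0.56, adjusted p = 0.050). In all, 1 of the 8 rose and 2 fell with each ligand in optimized cells, and 2, 2 and 3 rose and 2, 1 and 1 fell with IFNw, H11 and IFNL3 in wild-type cells. Under the length offset 0 fell in wild-type cells with IFNw, and 1, 1 and 2 fell in optimized cells. The list's median was between 0.04 and 0.25. Interferon genes, which include targets of IRF7, stayed close to silent. Of 21 interferon genes counted, 16 had any read, no gene had more than 12 reads in a library, and 0 passed the low-count filter. Targets of IRF7 outside the interferon genes were not examined as a list.

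Of 3 measured IRF2-binding corepressor genes, IRF2BP2 and IRF2BPL fell in optimized cells with IFNw (log2 -0.71, adjusted p = 0.0037, and -0.92, adjusted p = 0.0015) and with H11 (-0.62, adjusted p = 0.0089, and -0.64, adjusted p = 0.016). They also fell in wild-type cells with IFNw (-0.79, adjusted p = 0.0020, and -0.91, adjusted p = 0.0017), and 0 of the 3 was called with IFNL3 in either genotype or with H11 in wild-type cells. Of 11 measured STAT3 target genes, 3, 2 and 2 rose and 3, 4 and 3 fell with IFNw, H11 and IFNL3 in optimized cells, and 2 rose with each ligand and 3, 2 and 2 fell in wild-type cells. After the length offset 2, 1 and 2 rose in optimized cells, and 1 rose and 2 fell in wild-type cells with IFNw. The list's median was between -0.41 and 0.22. VEGFA, a vascular growth factor, fell in all 6 comparisons (-1.22 to -0.93), and with the length offset that with IFNw in wild-type cells was not called (-0.47, adjusted p = 0.067). JUNB, an immediate early factor, rose with every ligand in optimized cells (0.97 to 1.06) and with IFNw in wild-type cells (31.7 against 15.4 CPM untreated, 1.04, adjusted p = 0.00025). JUNB stood at -0.06 with H11 (adjusted p = 0.81) and -0.15 with IFNL3 (adjusted p = 0.55) in wild-type cells.

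The genes that ISGF3 drives were described with a list of 30, of which 28 passed the filter. In optimized cells 27 of the 28 rose with each ligand, against 17.5%, 17.2% and 7.26% of all genes tested rising with IFNw, H11 and IFNL3. In wild-type cells 27 rose with IFNw, 25 with H11 and 25 with IFNL3, against 16.6%, 18.2% and 18.7% of all genes. Of the 28, 7 had no reads in untreated optimized libraries and 6 had none in untreated wild-type ones. Such genes could not pass the low-count filter through those libraries, so the filter itself favoured their rise. The counts include them and are descriptions. The median log2 fold change of the 28 was 5.68 with IFNw, 5.68 with H11 and 5.29 with IFNL3 in optimized cells, and 5.60, 4.45 and 4.57 in wild-type cells, with 7 and 6 genes that had no reads in untreated libraries set at the bound that 3 reads over the untreated group allow. The median of all genes tested was between -0.05 and -0.01 in these comparisons. MX1 was the gene not called in optimized cells (0.422 to 1.3 CPM with a ligand, 0.466 CPM untreated), and UBE2L6, the conjugating enzyme of ISG15, fell in wild-type cells with H11 (14.5 against 24.6 CPM untreated) and IFNL3 (16.7 CPM); both are named after their values were seen, and with the length offset the UBE2L6 decrease was called with H11 and not with IFNL3.

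Optimized and wild-type cells differed in 24 of the 28 target genes with H11, 18 higher and 6 lower in optimized cells (25.6% and 26.1% of all genes; list median log2 0.93, all genes -0.05), and in 19 with IFNL3, 14 higher and 5 lower (18.1% and 15.1% of all genes; list median 0.58, all genes -0.01). With the length offset 17 were higher and 5 lower with H11, and 13 higher and 4 lower with IFNL3. ISG15, a ubiquitin-like modifier, was 7143 ± 542 CPM with H11 in optimized cells, against 586 ± 58.8 CPM in wild-type cells, and 4372 ± 4.09 CPM with IFNL3 in optimized cells, against 558 ± 52.4 CPM in wild-type cells. IFI6, a mitochondrial survival protein, was 8020 CPM in optimized cells with H11, against 694 CPM in wild-type cells (log2 3.53, adjusted p = 2.6e-12). So with H11 and IFNL3 in optimized cells STAT2 was lower than in wild-type cells while most of the target genes called were higher. With IFNw 0 of 28 were called between the genotypes.

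In wild-type cells 6 of the 28 targets were higher and 17 lower with H11 than with IFNw (26.6% and 25.7% of all genes; list median -0.90, all genes 0.05), while STAT2 was higher. In optimized cells 0 of 28 were called between H11 and IFNw (list median 0.02). Against IFNL3, H11 gave 11 targets higher and 1 lower in optimized cells (10.7% and 6.86% of all genes; list median 0.30), 5 higher and 1 lower with the length offset, and 0 of 28 in wild-type cells. Of the 28, ISG15 was 586 ± 58.8 CPM with H11 in wild-type cells, against 7781 ± 106 CPM with IFNw, a log2 difference of -3.73 (adjusted p = 5.5e-12) that was -2.87 with the length offset.

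**Figure D5:**
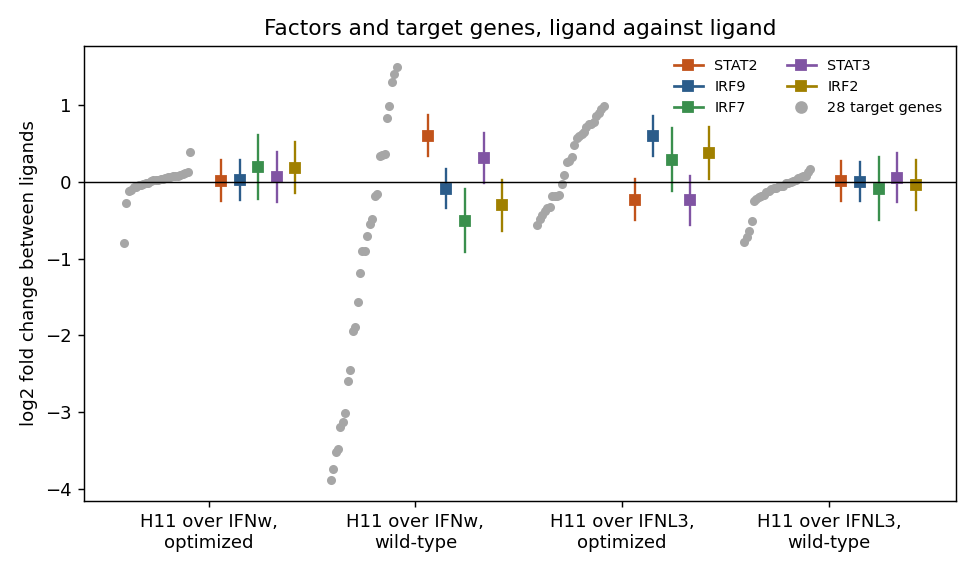
Log2 fold change between ligands for the 5 factors (squares with 95% intervals) and the 28 target genes (grey points, sorted), for H11 over IFNw and H11 over IFNL3 in optimized and wild-type cells. For H11 over IFNw the target genes lie close to 0 in optimized cells and mostly below it in wild-type cells, where STAT2 stands at 0.60, IRF9 at -0.09 and IRF7 at -0.51.

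Likeness of pattern was measured as the mean absolute difference between centred log2(CPM + 0.5) profiles over the 16 libraries, among 9879 other genes with a mean of 5 CPM or more. The profile most like IRF9 was that of IRF7 (0.286), followed by IFIT5 (0.286) and SAMD9 (0.321), against a median of 1.69 over all candidates. The profile most like IRF7 was that of IRF9, followed by IFIT5 (0.292) and SAMD9 (0.320). For STAT2 the nearest profiles were TRIM14 (0.168), RNF31 (0.170) and NADK (0.172), against a median of 0.660. IRF2 lay nearest to SQSTM1 (0.096), BTN2A1 (0.104) and DNTTIP2 (0.105), and STAT3 to SUN1 (0.073), COX15 (0.076) and NUDT21 (0.088), with medians of 0.405 and 0.319. These distances are descriptions over libraries that share treatment, depth and the trend on transcript length.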

How the data were processed

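RNA of HEK293 cells was counted in 16 libraries, 2 in each of 8 groups formed from the genotype and treatment labels. Per the labels' protocols, the RNA was total RNA from a miniprep kit, sequenced as Ion Torrent libraries. The deposited files hold whole-number read counts per target with no normalization, 1 target per gene. The submitters' processing notes name hg19, while the aligner, counter, strand use and target positions were not given in the sources used here. Promoters are from RefSeq (GRCh38.p14), where 3 of the 5 genes matched (STAT2, IRF9 and STAT3, not IRF7 and IRF2), and transcript lengths from GENCODE 29.

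Of 20812 targets, 10 spike-ins (at most 1 read) were left out, and of 28 symbols turned into dates 27 were repaired. Totals were 5331203 to 9822088 reads. No pair of replicates agreed within sampling noise (chi-square over its degrees of freedom was 6.35 to 24.9), and each library counted as 1 sample. The counts entered edgeR 4.0.16 (R 4.3.3; filterByExpr, TMM and the quasi-likelihood test), with 1 coefficient per group over all libraries (biological coefficient of variation 13.3%), and p-values were Benjamini-Hochberg adjusted over 12704 genes at a threshold of 0.05. SE is the absolute log2 fold change over the root of F. The 19 comparisons set ligands against untreated cells, optimized against wild-type cells, the differences between their responses, and ligand against ligand. The procedure was tested on simulated data.

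The alternatives were DESeq2 1.42.0, DESeq2 size factors, no low-count filter, a block for the replicate number, a length offset (natural spline, 5 degrees of freedom, on log longest transcript length, 12142 genes), only the groups compared, no wild-type H11 and IFNL3 libraries, and each library left out. The longest transcript replaced the median length after the lengths of the 5 genes were seen. The 5 genes are named whatever their values, with up to 4 called genes per list and comparison of at least 5 CPM by largest change, other STAT and IRF genes by level, and the 3 most like profiles. The genes and lists were chosen with earlier results of these data known, 1 gene was dropped from a list after the counts had been seen, and some genes of the lists are not reported here.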

Additional observations from a re-analysis of the deposited data

Results flagged for a closer look

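The STAT2 response to H11 differed between the genotypes by a direct test of the difference. It was smaller in optimized than in wild-type cells by a log2 difference of -0.81 ± 0.19 (SE, edgeR adjusted p = 0.0023), with both optimized H11 libraries below both wild-type ones. The STAT2 response to IFNL3 differed in the same direction by -0.57 ± 0.18 (edgeR adjusted p = 0.041), again with the level in both optimized IFNL3 libraries below both wild-type ones. That IFNL3 call was lost in 8 of 14 alternatives, left-out libraries included. With a trend on transcript length removed the values were -0.92 and -0.64. Groups of 2 libraries are too small for a search for outlying samples.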

How the results depend on the processing

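Each fold change of the 5 factors was recomputed under up to 7 alternatives and with each library left out; the fit without the wild-type H11 and IFNL3 libraries could not be run for comparisons that use them. Of these values 1004 kept their side of the threshold, 34 lost a call and 19 gained one. Another 3 changed direction where at least 1 of the 2 values was called. These 3 were all for IRF9 under the length offset: 0.45 for H11 against IFNw in wild-type cells, -0.45 for IFNw against IFNL3 in wild-type cells and -0.42 for optimized against wild-type cells with H11. Changes of direction between values that were not called are among the 1004. Under the length offset, IRF7 for IFNw against IFNL3 in wild-type cells went from 0.42 to -0.04. STAT3 for optimized against wild-type cells with H11 went from -0.16 to 0.07. Groups of 2 libraries and the length trend, which runs with treatment and genotype, limit these comparisons. Where 1 library of a group was left, its spread was taken from the other groups.

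The number of factors called moved as follows. Under the length offset it was 0 for H11 and 0 for IFNw against IFNL3 in optimized cells and 2 for IFNw against IFNL3 in wild-type cells. The last comparison also gave 2 with no low-count filter and with only the groups compared. The difference in response to H11 gave 2 with no low-count filter, and that to IFNL3 gave 0 with no low-count filter and 0 with only the groups compared. With libraries left out, the number was 0 to 1 for H11 and for IFNw against IFNL3 in optimized cells, 1 to 2 for H11 against IFNw and 1 to 2 for IFNw against IFNL3 in wild-type cells, 1 to 2 for optimized against wild-type cells with H11, 0 to 1 with IFNL3 and 0 to 1 untreated, and 1 to 2, 0 to 2 and 0 to 1 for the differences in response to H11, IFNL3 and IFNw.

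With the replicate block, 2 factors were called for IFNw against IFNL3 in wild-type cells and 2 for the difference in response to H11, in both cases with IRF7 added to STAT2 (0.41, adjusted p = 0.0073, and 0.75, adjusted p = 0.0091). IRF7 was also called between the genotypes with IFNL3 (0.38, adjusted p = 0.017), and IRF2 in optimized cells with IFNL3 (0.46, adjusted p = 0.047). The labels do not say that a replicate number marks a shared culture or day. Over 28 pairs of groups the correlation of replicate differences was 0.083 to 0.203, and 27 were over 0.1.

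Over all genes, the number called moved by over 1.5 times in 29 of the recomputed values. Under the length offset it was 1129 for H11 and 1227 for IFNw against IFNL3 in optimized cells, where the main counts were 2232 and 2422. With only the groups compared it was 2052, 2021 and 225 for IFNw, H11 and IFNL3 against untreated optimized cells (4247, 4116 and 1690), and 1538 for the difference in response to IFNL3 (2338). With no low-count filter it was 50 for untreated optimized against wild-type cells, 15 for the difference in response to IFNw and 1 for H11 against IFNL3 in wild-type cells (0 each). Without replicate 1 of the untreated optimized libraries 1280 genes were called between untreated genotypes, 761 for the difference in response to IFNw, and 3127 for IFNL3 in optimized cells (0, 0 and 1690). Without replicate 1 of the untreated wild-type libraries the first 2 of these counts were 1 each. Without either optimized IFNL3 library or replicate 2 of the untreated optimized ones, IFNL3 in optimized cells gave 680 to 978. Without any 1 of the compared libraries, H11 against IFNL3 in optimized cells gave 1046 to 1213 and IFNw against IFNL3 gave 1243 to 1510. Wild-type cells with IFNw gave 2630 without replicate 2 with IFNw (3988), optimized against wild-type cells with IFNL3 gave 2807 without wild-type IFNL3 replicate 1 (4220), and the difference in response to IFNL3 gave 1547 without optimized IFNL3 replicate 1 and 1508 without wild-type IFNL3 replicate 2 (2338).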

Other observations

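Reads of IRF7 per read of IRF9, 2 interferon-stimulated factors whose profiles were each other's nearest, were taken within each library. They were 2.12 and 2.98 with IFNw, 2.67 and 3.07 with H11 and 3.15 and 4.05 with IFNL3 in optimized cells, against 2.31 and 2.60 in untreated optimized cells. In wild-type cells they were 2.07 and 2.83 with IFNw, 1.58 and 2.08 with H11 and 1.81 and 2.10 with IFNL3, against 2.09 and 2.33 in untreated wild-type cells. With H11 and with IFNL3 the optimized libraries were above the wild-type ones, and with IFNw the genotypes overlap. Blood cell markers summed to 3.05 to 6.26 CPM in wild-type cells with H11 or IFNL3 and to 0.977 to 2.14 CPM in the other libraries.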
